A study of Homo sapiens with 6 samples.

Results

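The 9 genes described here set how a cell starts blood clotting and how it dissolves the clot. They are F3, TFPI, TFPI2, THBD, F2RL1, PLAU, PLAT, PLAUR and SERPINE2, taken by gene symbol, and all 9 of 9 were found among the 26255 symbols of the expression table. The RNA came from the human line MDA-MB-231, breast cancer cells of a basal, mesenchymal character, and was sequenced in 2 groups of 3 libraries. Cells of the first group carried a scrambled control hairpin (shNT) and cells of the second a short hairpin RNA against GPR81 (shGPR81), a receptor for lactate encoded by HCAR1. Both groups received their hairpin by lentivirus and were selected with puromycin, so the controls share the infection and the selection. The sources used here do not say which of 2 GPR81 hairpins the sequenced cells carried, nor whether the 3 libraries of a group came from separate cultures, so p-values measure only the spread between these libraries. The comparison asks which genes differ between the libraries labelled shGPR81 and shNT.

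Tissue factor, the product of F3, is a membrane protein that binds factor VIIa and starts the clotting cascade. Its inhibitor TFPI blocks that complex, TFPI2 is a related secreted inhibitor of serine proteases, and thrombomodulin (THBD) turns thrombin from a clotting enzyme into an activator of the anticoagulant protein C. F2RL1 encodes PAR2, a receptor that the tissue factor complex cuts and thereby activates. Plasminogen is converted to plasmin by the urokinase enzyme (PLAU), which acts at the cell surface on its receptor (PLAUR), and by tissue plasminogen activator (PLAT), and SERPINE2 encodes a serpin that inhibits both activators and thrombin. In breast cancer cells these proteins are known for their part in invasion and in clotting associated with tumors.

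The values are FPKM, read counts scaled to the length of the transcript and to the size of the library. Levels can be set side by side between genes only as far as the transcript lengths used are right. A gene was called when its Benjamini-Hochberg adjusted p from limma was under 0.05 and its fold change exceeded 1.5, in a fit on log2(FPKM + 0.1) over 14349 genes. Fold changes are on that scale. By this rule 2.54% of the genes tested were called, namely 1.59% as lower and 0.955% as higher with the GPR81 hairpin label. The reads behind a value could be recovered for some genes, and these give a depth of 12300000 to 13200000 reads per library (medians over genes, rounded). HCAR1, the gene the hairpin is directed against, stood at 0.968, 1.02 and 1.36 FPKM in shNT and at 0.978, 0.891 and 0.396 FPKM in the libraries labelled shGPR81. The groups overlapped, and the log2 fold change stood at -0.57 (SE 0.31, limma adjusted p = 0.38). Without shGPR81 replicate 3, the library at 0.396 FPKM, it was -0.22, and over the fits that left out 1 library it ran from -0.78 to -0.22. The paper reports reduced GPR81 in its shGPR81 cells by RT-qPCR and by western blotting, which are other measurements than these libraries. Of the markers of this line, VIM, CD44 and AXL were all present. Of the luminal or epithelial markers, EPCAM stood at 5.2 to 6.86 FPKM and GATA3 at 1.11 to 1.39 FPKM over the 6 libraries. The others, ESR1, PGR and CDH1, were at 0 in every library. The endothelial marker CDH5, the leukocyte markers CD3E and ITGAM and the platelet markers PPBP and GP9 were at 0 as well, and the highest value of any of the 13 endothelial, leukocyte and platelet markers was 4.29 FPKM, for CD14. The 4 leukocyte markers summed to between 2.24 and 4.29 FPKM in shNT and between 1.14 and 1.77 FPKM in the libraries labelled shGPR81, the 5 endothelial markers to 0.818 to 1.05 and 0.798 to 1.23 FPKM, and the 4 platelet markers to 0 to 0.504 and 0.296 to 1.08 FPKM. The leukocyte sum was nearly all CD14, at 2.24, 4.29 and 3.62 FPKM in shNT and 1.74, 1.14 and 1.58 FPKM in the other group. PTPRC reached at most 0.0286 FPKM. The part of the lower CD14 level in the results was not tested.

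All 9 genes passed the filter on low values, and 3 of them were called: F3 and THBD were lower and PLAT was higher in the libraries labelled shGPR81. F3 fell by 36.0%, from 52.6 ± 3.20 to 33.6 ± 1.68 FPKM, THBD fell by 47.8%, from 8.70 ± 1.03 to 4.54 ± 0.221 FPKM, and PLAT rose from 72.3 ± 5.44 to 115 ± 4.61 FPKM (SD, n = 3 in each group). F2RL1 was also lower with an adjusted p of 0.0103 (limma), but by less than 1.5-fold. TFPI, TFPI2, PLAU, PLAUR and SERPINE2 did not pass. Counted by adjusted p alone, 4 of the 9 genes passed, where 5.13% of all genes tested did. The groups did not overlap in 7 of the 9 genes, where 25.6% of the genes tested had groups apart. The 9 genes were chosen with earlier results of these data known, so these counts are a description and not a test. The median log2 fold change of the 9 genes was -0.02, beside 0.01 over all genes tested.

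**Figure D1:**
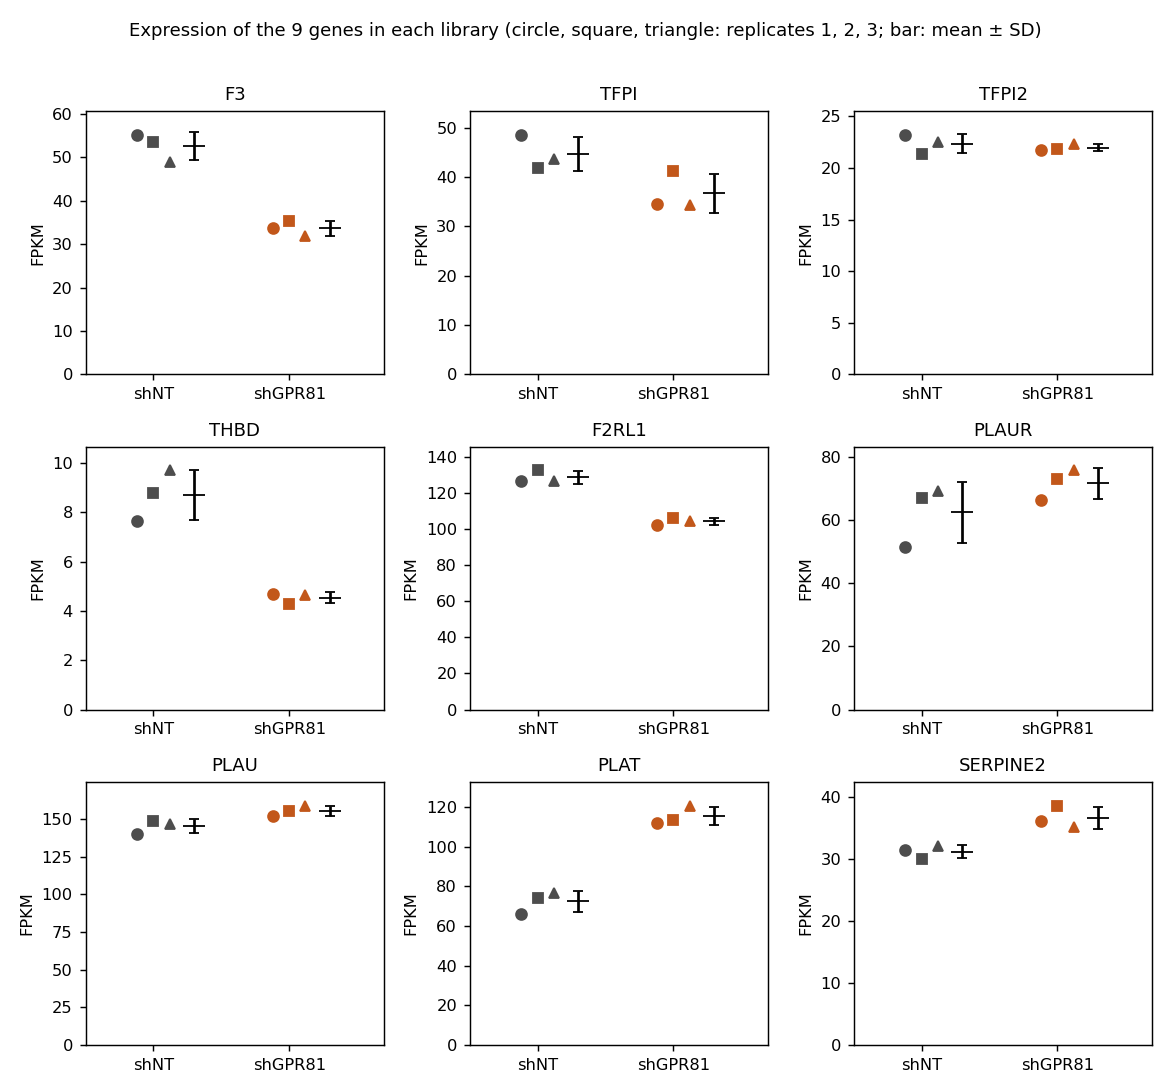
Expression of the 9 genes in FPKM (vertical axis from 0) in each of the 3 shNT and 3 shGPR81 libraries, with the mean ± SD beside the points. F3 and THBD sit lower and PLAT sits higher in all 3 shGPR81 libraries than in any shNT library, while the points of TFPI2 and PLAUR overlap.

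F3 (GRCh37, chromosome 1, 94994729 to 95007315, minus strand) has up to 6 exons in GENCODE release 44. The 3 shNT libraries held 55.2, 53.6 and 49.0 FPKM of F3, and the libraries labelled shGPR81 held 33.8, 35.2 and 31.9 FPKM. The groups were far apart, with 49.0 FPKM as the lowest shNT value and 35.2 FPKM as the highest of the other group. The log2 fold change stood at -0.64 (SE 0.06, limma adjusted p = 0.0024), with a 95% interval of -0.79 to -0.49. The permutation test (exact, two-sided) returned p = 0.1, the smallest that 3 against 3 libraries allow. F3 was called in all 6 of the fits that left out 1 library.

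The bases before the start of a gene are shown for the members whose promoter holds an AP-1 word, TGANTCA, the binding word of the Fos and Jun factors, and for F2RL1, which passed by adjusted p alone. RefSeq promoter windows (GRCh38.p14) matched 7 of the 9 genes, with 9 windows. THBD and PLAT, both called, had no window, so no word was searched for in their promoters. The 250 bases before the start were read 5′ to 3′ on the strand of the gene. Both strands were searched, the word is its own reverse complement, and 6.57% of 35116 promoters hold it. The F3 window (chr1:94541760-94542009, minus strand) holds it at 2 places, beginning 223 and 210 bases before the start. The windows of TFPI2 (chr7:93890754-93891003, minus strand) and PLAUR (chr19:43670170-43670419, minus strand) hold it once each, and the F2RL1 window (chr5:76818780-76819029, plus strand) does not hold it. Capitals mark the AP-1 word.
F3: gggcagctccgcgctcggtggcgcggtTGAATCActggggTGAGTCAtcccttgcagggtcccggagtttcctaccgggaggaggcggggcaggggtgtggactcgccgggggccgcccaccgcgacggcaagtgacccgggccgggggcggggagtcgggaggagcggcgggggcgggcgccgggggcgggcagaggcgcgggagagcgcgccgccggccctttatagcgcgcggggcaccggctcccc
TFPI2: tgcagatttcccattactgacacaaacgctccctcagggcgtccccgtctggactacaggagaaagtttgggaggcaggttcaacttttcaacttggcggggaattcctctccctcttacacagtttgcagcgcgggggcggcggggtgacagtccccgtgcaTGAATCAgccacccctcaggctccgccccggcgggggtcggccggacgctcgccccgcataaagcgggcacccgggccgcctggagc
PLAUR: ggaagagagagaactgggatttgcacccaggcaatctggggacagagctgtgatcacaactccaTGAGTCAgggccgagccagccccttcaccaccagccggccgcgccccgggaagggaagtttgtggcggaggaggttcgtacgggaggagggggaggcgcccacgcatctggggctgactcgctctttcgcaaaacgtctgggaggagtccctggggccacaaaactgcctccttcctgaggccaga
F2RL1: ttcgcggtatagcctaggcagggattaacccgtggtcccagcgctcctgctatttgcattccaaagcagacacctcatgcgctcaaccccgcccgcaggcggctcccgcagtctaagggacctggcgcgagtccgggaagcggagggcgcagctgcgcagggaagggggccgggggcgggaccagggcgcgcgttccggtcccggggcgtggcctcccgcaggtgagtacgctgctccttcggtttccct
Of the 3 genes with the word, F3 was called lower and TFPI2 and PLAUR were not called. The GC box GGGCGG stood in the windows of F3 (4 matches), TFPI2 (2) and F2RL1 (2), in 1 of the 2 PLAU windows (3) and in both SERPINE2 windows (1 and 2). It was not found in the windows of TFPI and PLAUR and stood in 42.6% of all promoters, counted on both strands. The core TGACG of the cAMP response element was in 0 of the 9 windows and in 21.2% of all promoters. A TATA word, TATAAA on either strand, began 28 bases before the start of F3 and was found in 10.7% of all promoters. These matches are descriptions of letters and not of binding.

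TFPI, the inhibitor of the initiating step, and the related TFPI2 did not pass the test. TFPI, on chromosome 2 from 188328957 to 188430487 on the minus strand, was at 48.5, 41.8 and 43.7 FPKM in shNT and at 34.5, 41.2 and 34.4 FPKM in the libraries labelled shGPR81. The groups were apart, but the gap was narrow: 41.2 FPKM in shGPR81 replicate 2 lay next to 41.8 FPKM in shNT replicate 2. Its log2 fold change stood at -0.29 (SE 0.09, 95% interval -0.49 to -0.08), and the adjusted p was 0.131 (limma). TFPI2, on chromosome 7 from 93514708 to 93520065 on the minus strand, was at 23.2, 21.3 and 22.5 FPKM in shNT and at 21.7, 21.9 and 22.3 FPKM in the other group. The groups overlapped. TFPI2 lies across from GNGT1, a gene on the opposite strand that was at 0 FPKM in every library, and TFPI overlaps the antisense gene CALCRL-AS1, which was not analysed here. For TFPI2 the interval of the log2 fold change, -0.15 to 0.10, leaves room for changes of up to 1.075-fold upward and to 0.899 of the shNT level downward. The level of F3 relative to TFPI, as a ratio of FPKM within a library, was 1.14, 1.28 and 1.12 in shNT and 0.982, 0.855 and 0.926 in the libraries labelled shGPR81. In FPKM, F3 thus stood above TFPI in every shNT library and below it in every library of the other group. Where the ratio crosses 1 depends on the transcript lengths used for FPKM, which are not known here. This ratio is a description without a test.

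THBD, thrombomodulin, had the lowest level of the 9 genes and the largest fold change among them. It consists of 1 exon on chromosome 20 from 23026270 to 23030309 on the minus strand, and it was read 403, 474 and 512 times in shNT against 265, 239 and 259 times in the other group. In FPKM these values were 7.64, 8.77 and 9.69 against 4.69, 4.28 and 4.64. All 3 shNT values were above all 3 of the other group. The log2 fold change stood at -0.92 (SE 0.10, 95% interval -1.16 to -0.68, limma adjusted p = 0.00342), and the ratio of the reads after correction for depth was 0.522 (95% Clopper-Pearson interval 0.477 to 0.570, counting error only). THBD was called in all 6 fits that left out 1 library. In bulk RNA, fewer cells that express a gene and less RNA per cell cannot be told apart. F3 and THBD, which act in opposite directions on clotting, were both lower, and the ratio of F3 to THBD was 7.22, 6.12 and 5.06 in shNT and 7.21, 8.22 and 6.87 in the other group, so the groups overlapped in it.

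Genes of chromosome 20, where THBD lies, were lower as a group in the libraries labelled shGPR81. Among the 266 other chromosome 20 genes that averaged 5 FPKM or more, the median log2 fold change was -0.40 and 96.2% were below 0, while 1.13% were lower than THBD. With the median of its chromosome removed in each library, THBD had a log2 fold change of -0.52 (SE 0.09, limma adjusted p = 0.0165), which no longer exceeded a 1.5-fold change. PROCR, the endothelial protein C receptor that works together with thrombomodulin, lies on the same chromosome from 33759875 to 33804043. It was at 41.2, 47.9 and 50.4 FPKM in shNT and at 31.9, 33.1 and 30.3 FPKM in the libraries labelled shGPR81, and its log2 fold change stood at -0.54 (SE 0.08, adjusted p = 0.0111), with a fold below the threshold. It was called only without shNT replicate 1 (-0.63, adjusted p = 0.00178). Of the 266 other genes of the chromosome, 21.4% were lower than PROCR, and with the chromosome median removed it stood at -0.14 (adjusted p = 0.276). Effects of the chromosome as a whole and of the single gene cannot be told apart in these data. The other members lie on chromosomes whose genes had median log2 fold changes between -0.01 and 0.04.

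**Figure D2:**
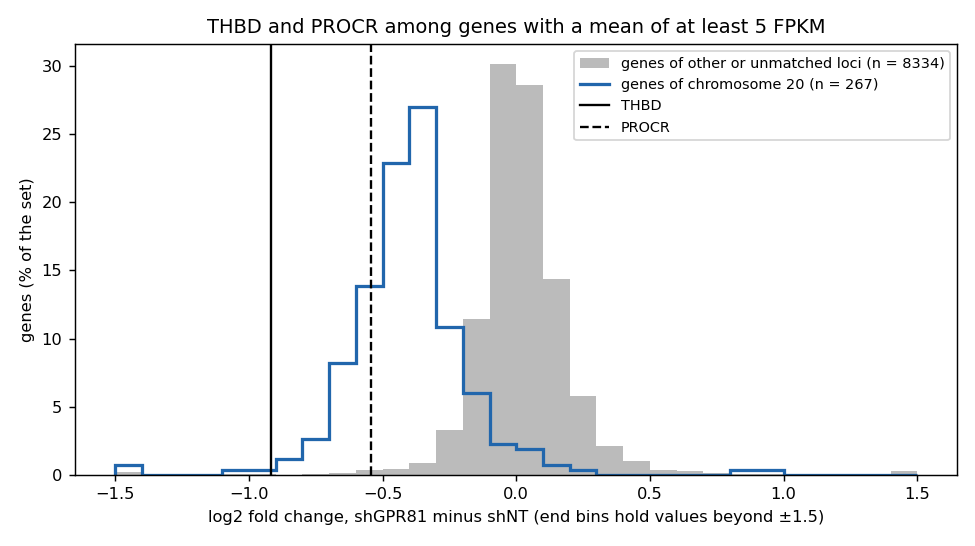
Distribution of log2 fold changes (horizontal axis, shGPR81 minus shNT) for 267 genes of chromosome 20 (blue line) and 8334 other genes (grey), as the percentage of each set per bin of 0.1, for genes that averaged 5 FPKM or more. The blue distribution is centred near -0.40, PROCR (dashed, -0.54) lies within it and THBD (solid, -0.92) lies at its lower end.

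F2RL1, the gene of PAR2, was the second most abundant of the 9 genes in shNT. It lies on chromosome 5 from 76114758 to 76131140 on the plus strand. The shNT libraries held 126, 132 and 127 FPKM and the libraries labelled shGPR81 held 102, 106 and 104.5 FPKM. Behind these values stood 4657, 5004 and 4683 shNT reads against 4039, 4138 and 4081. The groups were well apart relative to their spread. The log2 fold change stood at -0.30 (SE 0.04, 95% interval -0.40 to -0.20, limma adjusted p = 0.0103). The ratio of reads was 0.812 (Clopper-Pearson interval 0.792 to 0.831, counting error only), and the difference of F2RL1 was small. Its adjusted p was over 0.05 without shNT replicate 2 or any 1 library labelled shGPR81, with values from 0.0514 to 0.0679 (limma).

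Of the 3 related receptors, 1 was called. F2R, the gene of PAR1 and the main thrombin receptor of many cells, was at 31.2, 30.0 and 28.8 FPKM in shNT and at 26.5, 26.4 and 24.2 FPKM in the libraries labelled shGPR81, which did not pass (log2 fold change -0.22, SE 0.06, limma adjusted p = 0.0879). F2RL2, the gene of PAR3, was called lower, at 1.46, 1.63 and 1.51 FPKM against 0.860, 0.724 and 0.873 FPKM (log2 fold change -0.84, SE 0.14, adjusted p = 0.0168). Its call held without shNT replicate 1 or 3 and was lost without shNT replicate 2 or any 1 library labelled shGPR81, with adjusted p between 0.0514 and 0.0874 (limma). F2RL3, the gene of PAR4, was read 2, 3 and 5 times in shNT against 15, 12 and 9 times in the other group. The reads of F2RL3 were 3.42 times as many at equal depth (1.66 to 7.72 by Clopper-Pearson, counting error only), while the adjusted p from limma was 0.0789. F2RL1 was thus the receptor of this family with the highest level in both groups.

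PLAT, tissue plasminogen activator, was the one gene of the 9 that was called higher. It lies on chromosome 8 from 42032236 to 42065227 on the minus strand, with up to 15 exons. The shNT libraries held 66.2, 74.0 and 76.7 FPKM, and those labelled shGPR81 held 112, 113 and 121 FPKM. The lowest value of the second group exceeded the highest shNT value by more than the whole range within either group. The log2 fold change stood at 0.67 (SE 0.07, 95% interval 0.52 to 0.83, limma adjusted p = 0.00213), a 1.60-fold increase. PLAT was called in all 6 fits that left out 1 library, and the permutation test (exact, two-sided) returned p = 0.1.

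PLAU, the urokinase gene, did not pass although its groups were apart. It lies on chromosome 10 from 75668935 to 75677254 on the plus strand and was at 139.9, 149 and 147 FPKM in shNT and at 152, 155 and 159 FPKM in the other group. The log2 fold change stood at 0.10 (SE 0.05, limma adjusted p = 0.314), and its 95% interval of -0.01 to 0.21 reaches up to a 1.15-fold increase. An antisense transcript, C10orf55, overlaps PLAU over 7528 bases and reached at most 1.23 FPKM. PLAUR, on chromosome 19 from 44150247 to 44174699 on the minus strand, was at 51.3, 66.8 and 69.1 FPKM in shNT and at 66.1, 73.0 and 75.6 FPKM in the other group. The low value of shNT replicate 1 set most of the difference: the log2 fold change stood at 0.21 (SE 0.12, adjusted p = 0.396) with it and 0.07 (SE 0.06, adjusted p = 0.529) without it. The level of PLAU relative to its receptor overlapped between groups, at 2.73, 2.23 and 2.13 in shNT and 2.30, 2.13 and 2.10 in the libraries labelled shGPR81.

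SERPINE2, also named protease nexin 1, was at 31.4, 30.0 and 32.0 FPKM in shNT and at 36.1, 38.5 and 35.1 FPKM in the libraries labelled shGPR81. It lies on chromosome 2 from 224839762 to 224904035 on the minus strand. The groups were apart, the log2 fold change stood at 0.23 (SE 0.06, 95% interval 0.10 to 0.36), and the adjusted p of 0.0663 (limma) missed the threshold. SERPINB2, the gene of a further inhibitor of plasminogen activators, PAI-2, was called higher. Its values were 4.18, 4.24 and 3.32 FPKM in shNT and 8.60, 8.83 and 8.18 FPKM in the other group, a log2 fold change of 1.11 (SE 0.11, limma adjusted p = 0.00213), and it was called in all 6 fits that left out 1 library.

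The level of PLAT relative to SERPINE2, which is not its only inhibitor, is given within each library, as a description without a test. The ratio of PLAT to SERPINE2 was 2.11, 2.47 and 2.40 in shNT and 3.11, 2.94 and 3.43 in the libraries labelled shGPR81, higher in all 3 of the latter. The groups were apart in this ratio. SERPINB2, a further inhibitor, had a larger log2 fold change (1.11) than PLAT (0.67). Relative to SERPINB2, PLAT was thus lower in the libraries labelled shGPR81, opposite to its ratio to SERPINE2.

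**Figure D3:**
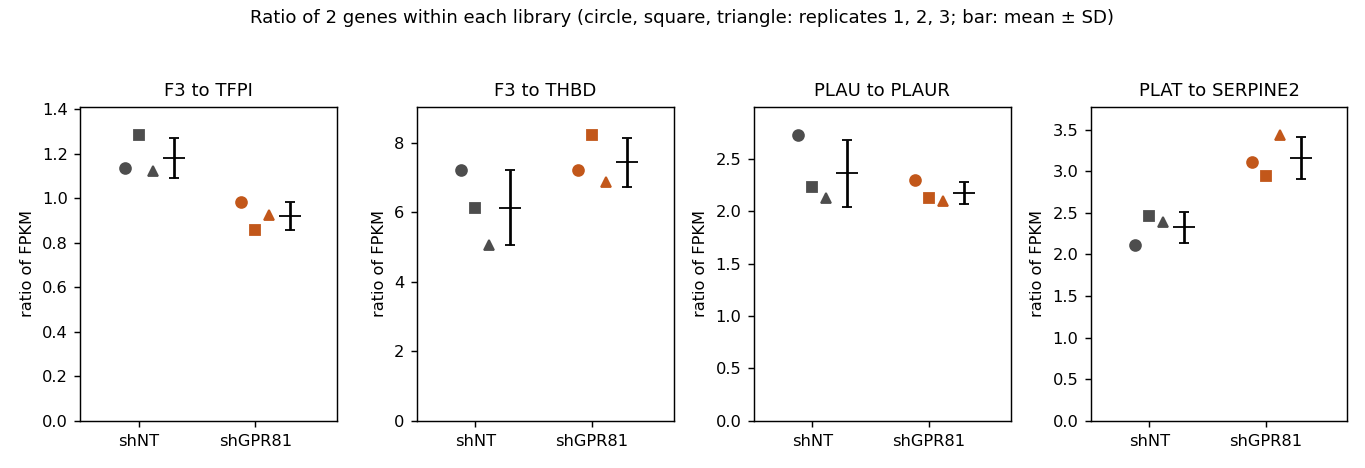
Ratio of the FPKM of 2 genes (vertical axis from 0) within each shNT and shGPR81 library, with the mean ± SD beside the points. F3 to TFPI is lower and PLAT to SERPINE2 is higher in all 3 shGPR81 libraries than in any shNT library, while F3 to THBD and PLAU to PLAUR overlap.

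The order of the 9 levels differed between the groups. In shNT the order by mean FPKM was PLAU (145), F2RL1 (128), PLAT (72.3), PLAUR (62.4), F3 (52.6), TFPI (44.7), SERPINE2 (31.1), TFPI2 (22.4) and THBD (8.70). The ranges of PLAT and PLAUR overlapped there, as did those of PLAUR and F3, and all other neighbours were apart. In the libraries labelled shGPR81, PLAT (115) stood above F2RL1 (104) without overlap, while TFPI (36.7), SERPINE2 (36.6) and F3 (33.6) followed PLAUR (71.6). Within that trio TFPI overlapped with SERPINE2 and SERPINE2 with F3. PLAU stood above 95.8% of the genes tested by its mean over the 6 libraries, PLAT above 93.1%, F3 above 84.5% and THBD above 45.5%.

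A wider list of 44 other genes of coagulation and plasminogen activation was compiled by hand, with earlier results of these data known. Of the 23 genes tested, 3 were called, where 2.54% of all genes tested were. Of these, 1 was lower (F2RL2) and 2 were higher (SERPINB2 and PROS1), and 20 genes were not called. By adjusted p alone 5 of the 23 passed, where 5.13% of all genes tested did. The groups were apart in 12 of the 23, where 25.6% of all genes tested had groups apart. The median log2 fold change of the 23 genes was -0.0039, beside 0.01 over all genes. PROS1, the gene of protein S, a cofactor of activated protein C, was at 7.43, 7.11 and 5.97 FPKM in shNT and at 11.04, 11.1 and 10.4 FPKM in the other group, with 346, 339 and 278 shNT reads against 550, 546 and 513. All 3 values of the second group were higher, with a log2 fold change of 0.66 (SE 0.09, limma adjusted p = 0.00897), and the call was lost without shNT replicate 3 (by its fold, at 0.57) and without shGPR81 replicate 1 or 2 (adjusted p = 0.0561 and 0.0541 from limma). The 21 genes below the filter included F2, F7, F9 and F10, the genes of prothrombin and of factors that liver makes, and PLG, the gene of plasminogen. None of the 21 exceeded 0.189 FPKM in any library, and 10 were at 0 in all. The surface proteins that hold plasminogen, ANXA2, S100A10, ENO1 and PLGRKT, were tested and none was called.

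**Figure D4:**
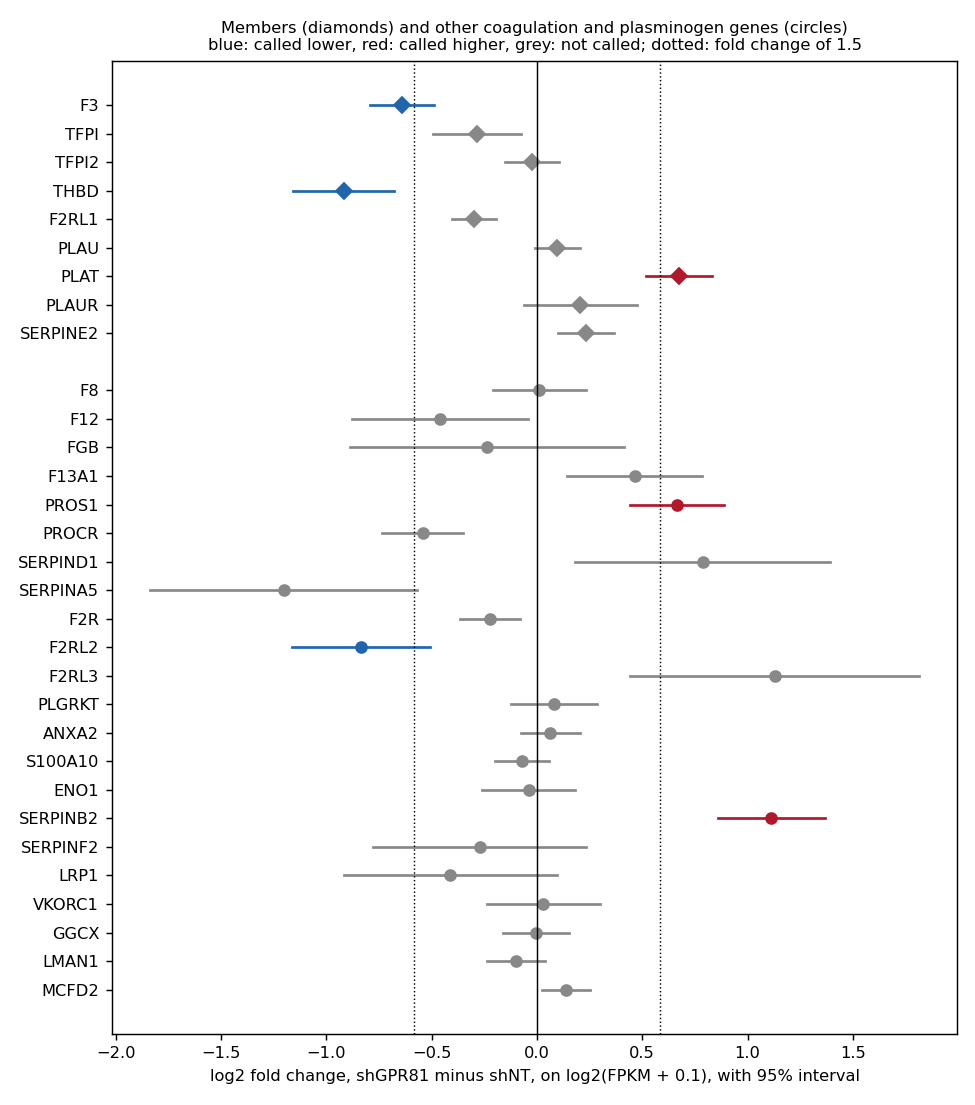
Log2 fold change (horizontal axis, shGPR81 minus shNT, on log2(FPKM + 0.1)) with its 95% interval for the 9 genes (diamonds) and the tested genes of the wider list (circles, with 1 gene not drawn). F3, THBD and F2RL2 (blue) were called lower, PLAT, PROS1 and SERPINB2 (red) were called higher, and the dotted lines mark a 1.5-fold change.

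Over the 6 libraries, the genes whose log2 values followed F3 most closely among 11676 genes that averaged 1 FPKM or more were RNF114 (Pearson's r = 0.999, a gene of chromosome 20), C6orf48 (0.998) and LACTB (0.997). All 3 were lower in each library labelled shGPR81, with log2 fold changes of -0.39, -0.33 and -0.33. The 6 points fall into the 2 groups of 3 libraries, and the correlations are given as a description. Of the other members, F2RL1 (0.973) and THBD (0.916) had the highest correlations with F3 and PLAT the lowest (-0.992).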

How the data were processed

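Messenger RNA libraries (TruSeq stranded mRNA) of 6 samples, 3 shNT and 3 shGPR81, were read as 75-base single-end reads on a HiSeq 2500. Per the labels, the authors used TopHat2 2.0.13, Bowtie2 2.2.3, SAMtools 0.1.19 and Cuffnorm 2.2.1. The paper names the human genome hg19 and the labels a mouse genome, and the gene symbols of the table are human. The annotation is not given in the sources used here. The deposited values are FPKM, scaled between libraries by the authors, with 1 column per library. The 9 genes and the wider list were chosen with earlier results of these data known.

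Log2(FPKM + 0.1) was fitted with limma 3.58.1 (eBayes with trend, R 4.3.3) for 14349 genes that reached 0.1 FPKM in 3 or more of the libraries, without a block, and adjusted over all of them. The fit and the recovery of reads were tested on simulated data. Reads were taken as the smallest whole numbers that gave the FPKM of the 6 libraries (within 0.003 reads plus a share of 6e-06), in 8391 of 15931 genes, and are printed where the depth they imply lies within 2-fold of the median over genes. Depth was computed from these reads, the FPKM and the longest transcript of each gene (quartiles over genes 8650000 to 14100000 reads). The Clopper-Pearson intervals (95%) of read ratios cover counting error only, while the 95% intervals of log2 fold changes come from the limma fit. Between replicates the chi-square averaged 1.46 to 5.09 for each gene (1 by counting noise), and the 2 highest values involved shNT replicate 1. Named genes are the 9, the called genes of the list, SERPINB2, F2R, PROCR, F2RL3, HCAR1 and the 3 genes most like F3, and 1 further gene of this rule is not reported here. F2, F7, F9, F10, PLG, ANXA2, S100A10, ENO1, PLGRKT, SERPINA5, SERPIND1, C10orf55, GNGT1, CALCRL-AS1 and the marker genes are named in addition, outside this rule. Alternatives were a replicate block, each library left out, pseudocounts of 1 and 0.01, a filter of 1 FPKM and none, median centring, quantile normalization, treat and removal of each chromosome's median. Loci are those of GENCODE release 44 on GRCh37, and 23462 of 26255 symbols matched.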

Additional observations from a re-analysis of the deposited data

How the results depend on the processing

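F3, THBD and PLAT kept their direction under all 15 alternatives. They were not called by limma's treat, which tests against a 1.5-fold change itself (log2 fold changes -0.64, -0.92 and 0.67), so that 0 of the 9 genes were called there and 46 genes were lower and 9 higher overall. THBD was also not called with the chromosome median removed (-0.52). With each library left out, the log2 fold change was between -0.69 and -0.60 for F3, between -1.01 and -0.84 for THBD and between 0.61 and 0.72 for PLAT, and 3 of the 9 genes were called each time. TFPI2 ran from -0.0579 to 0.0020 and changed sign without shNT replicate 1. Over all genes, 121 to 256 were lower and 65 to 152 higher in these fits, against 228 and 137 in the full data, with the lowest counts without shNT replicate 2 (121 lower) and without shGPR81 replicate 1 (65 higher), and the other counts more than 1.5 times smaller came without shGPR81 replicate 2 (135 and 66), shGPR81 replicate 1 (133 lower), shNT replicate 2 (81 higher) and shGPR81 replicate 3 (85 higher). A pseudocount of 1 gave 142 and 75.

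Of the wider list, 0 to 2 genes were lower and 1 to 3 higher with a library left out, with PROCR and SERPIND1 called in addition without shNT replicate 1. F2RL2 was not called with a pseudocount of 1 (0 lower) or by treat (0 lower and 0 higher), and SERPINA5, at an adjusted p of 0.0506 from limma, brought the count to 2 lower with median centring (2), quantile normalization (2) and the chromosome median removed (2).

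Equal replicate numbers were not taken as pairs (correlations of deviations 0.147, 0.0632 and -0.0381). With the replicate number as a block, 197 genes were lower and 115 higher, and no call among the 9 genes or the list was changed. A count model was not run, since reads were recovered for 52.7% of genes only.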

Other observations

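Summed over PLAU and PLAT, the plasminogen activators stood at 206, 223 and 224 FPKM in shNT and at 264, 269 and 279 FPKM in the libraries labelled shGPR81. The groups were apart in this sum. The share of the activators shifted from PLAU towards PLAT, with a ratio of PLAT to PLAU of 0.473, 0.497 and 0.522 in shNT and of 0.738, 0.729 and 0.759 in the other group. This sum and the ratio were chosen after the values were seen and carry no test. They do not include the inhibitors SERPINE2 and SERPINB2, whose log2 fold changes were 0.23 (not called) and 1.11 (called higher).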
